A study of Mus musculus with 60 samples.

Results

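The mRNAs of the epithelial sodium channel (ENaC) and of the proteins that place it under the control of aldosterone were followed in the kidneys of control mice and of mice without the clock gene Bmal1 in the renal tubule (cKOt mice). The group holds 8 genes, chosen by name from the 55335 gene rows of the count files: Scnn1a, Scnn1b, Scnn1g, Nr3c2, Hsd11b2, Sgk1, Nedd4l, and Kcnj1. All 8 passed the minimum expression, which left 15546 genes, and each was above 1 CPM (counts scaled to library size) in all 60 mice.

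RNA was sequenced from 60 male mice, 5 of each genotype at each of 6 zeitgeber times (ZT, hours after lights on) spaced by 4 h. The cKOt mice were Bmal1lox/lox/Pax8-rtTA/LC-1 Cre, in which doxycycline switches on Cre in Pax8-expressing tubule cells, and the control mice were Bmal1lox/lox littermates, for which the labels name the floxed alleles and no transgene. Both genotypes were on the C57BL/6J background and received doxycycline (2 mg/ml, with 20 mg/ml sucrose) in the drinking water for 2 weeks from the age of 8 weeks, so exposure to the drug is common to all 12 groups. By the study's methods the kidneys were taken 4 weeks after doxycycline had ended. The labels call the tissue renal tubule, whereas the study's methods describe pieces of frozen whole kidney, and glomerular and stromal cells are therefore part of the material. More mice were sequenced than are used, since the study selected 5 per group on RIN and on how close the replicates lay to each other, so the spread within groups is that of selected mice, and its sample list marks 1 of the deposited cKOt mice at ZT16 for removal.

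Between 17791420 and 20906706 counts fell on genes per mouse. Arntl, the targeted Bmal1 gene, oscillated with a peak-to-trough amplitude of 4.80 on the log2 scale in control mice against 0.49 in cKOt mice. Its mean level was 22.2 CPM in control against 20.7 CPM in cKOt mice, whereas the log2 differences averaged over the time points gave 0.71 ± 0.09 (SE, adjusted p = 2.22e-09, edgeR), a mean in which the low control values at ZT8 and ZT12 weigh as much as the high ones. Those counts cover the whole gene and do not tell a transcript without the deleted exons from an intact one. Of 5 adrenal cortex markers, Cyp11b1, Cyp11b2, Cyp21a1, and Cyp11a1 had at most 3 counts in any mouse, and Star had up to 48. Levels below are CPM after TMM scaling, and log2 differences are cKOt minus control from edgeR's quasi-likelihood fit to all retained genes, with p adjusted over those genes and called at 0.05. The fit also removes 2 factors of unwanted variation (RUVs), so a fitted difference can depart from the ratio of the mean CPM.

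Aldosterone acts in the late distal convoluted tubule, connecting tubule, and collecting duct. It binds the mineralocorticoid receptor (Nr3c2), which is kept free of glucocorticoids by 11-beta-hydroxysteroid dehydrogenase type 2 (Hsd11b2), and the receptor raises transcription of the kinase Sgk1. Sgk1 phosphorylates and thereby restrains the ubiquitin ligase Nedd4-2 (Nedd4l), which otherwise removes ENaC from the apical membrane. ENaC is assembled from an alpha (Scnn1a), a beta (Scnn1b), and a gamma (Scnn1g) subunit, and the sodium that enters through it drives potassium secretion through ROMK (Kcnj1), a channel that is also abundant in the thick ascending limb.

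RefSeq promoter windows on GRCm38.p6 were found for 5 of the 8 genes, in 10 windows of which 6 belong to alternative starts of Sgk1. The 250 bases upstream of each start were searched on both strands for the E-box CACGTG, to which BMAL1 and CLOCK bind, for the palindrome read by mineralocorticoid and glucocorticoid receptors (AGAACA and its reverse complement TGTTCT with 3 bases between them), and for its single arm AGAACA. They were also searched for AGGTCA, the core of the sites of ROR and REV-ERB receptors, and for the D-box TTATGTAA. The windows shown are those of the members whose 24 h rhythm was assigned to control mice only (Sgk1 and Nr3c2) and of the ENaC subunits with a higher mean in cKOt mice (Scnn1b and Scnn1g). Of the 6 Sgk1 windows, only that with the E-box and the palindrome is shown. The windows shown are on the plus strand, at chr10:21993640-21993889 (Sgk1), chr8:76902080-76902329 (Nr3c2), chr7:121864788-121865037 (Scnn1b), and chr7:121734229-121734478 (Scnn1g). Capitals mark CACGTG and the full palindrome in Sgk1 and Nr3c2, and AGGTCA or its complement in Scnn1b and Scnn1g.
Sgk1: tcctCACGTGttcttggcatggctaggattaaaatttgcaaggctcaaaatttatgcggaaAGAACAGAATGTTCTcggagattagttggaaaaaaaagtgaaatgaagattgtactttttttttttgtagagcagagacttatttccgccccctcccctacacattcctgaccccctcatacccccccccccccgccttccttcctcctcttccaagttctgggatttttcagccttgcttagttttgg
Nr3c2: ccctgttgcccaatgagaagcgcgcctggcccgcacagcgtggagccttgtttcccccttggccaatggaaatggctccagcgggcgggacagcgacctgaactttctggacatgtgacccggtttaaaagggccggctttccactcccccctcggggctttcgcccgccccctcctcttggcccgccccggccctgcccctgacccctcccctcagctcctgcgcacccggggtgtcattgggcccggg
Scnn1b: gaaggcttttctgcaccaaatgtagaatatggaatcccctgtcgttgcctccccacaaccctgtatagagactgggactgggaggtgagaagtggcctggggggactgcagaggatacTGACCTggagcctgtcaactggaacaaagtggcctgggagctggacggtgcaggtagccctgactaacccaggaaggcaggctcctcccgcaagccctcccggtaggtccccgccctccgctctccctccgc
Scnn1g: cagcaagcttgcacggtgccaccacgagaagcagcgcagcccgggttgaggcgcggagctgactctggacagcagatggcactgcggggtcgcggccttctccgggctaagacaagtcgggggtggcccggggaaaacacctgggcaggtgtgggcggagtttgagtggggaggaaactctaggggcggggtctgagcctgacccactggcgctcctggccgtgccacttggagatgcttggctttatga

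The Sgk1 window held both an E-box, which ended 241 bases before the start, and the full palindrome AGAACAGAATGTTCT, which ended 175 bases before it. Its start lies 776 bases upstream of the last annotated Sgk1 start. The E-box was present in 6.02% of the 32851 windows of the annotation and the palindrome in 0.00913%, which is 3 windows. A further TGTTCT in this window shares bases with the E-box, and both arms of the palindrome also count as AGAACA. Outside this window no member window held the E-box or the palindrome. AGAACA was found in windows of Kcnj1 and Sgk1 (16.1% of all windows), AGGTCA in windows of Scnn1b and Sgk1 (14.0%), and TTATGTAA in none (0.819%). These matches describe letters in the reference and not binding.

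Of the 8 members, 5 had a higher mean over the 6 time points in cKOt mice, none had a lower mean, and 3 were not called. Among all 15546 genes 50.0% were called, 26.8% as higher and 23.2% as lower, so a call was a frequent outcome in this comparison. The median log2 difference was 0.16 over the members and 0.01 over all genes. The members that rose were Scnn1b, Scnn1g, Nr3c2, Sgk1, and Kcnj1. In RNA from whole tissue, more cells of a type and more RNA per cell cannot be told apart. By time point, 1 member was called at ZT0 (12.1% of all genes), 3 at ZT4 (12.5%), 2 at ZT8 (19.9%), 3 at ZT12 (21.0%), 3 at ZT16 (19.8%), and 4 at ZT20 (13.8%), all of them higher in cKOt mice.

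**Figure D1:**
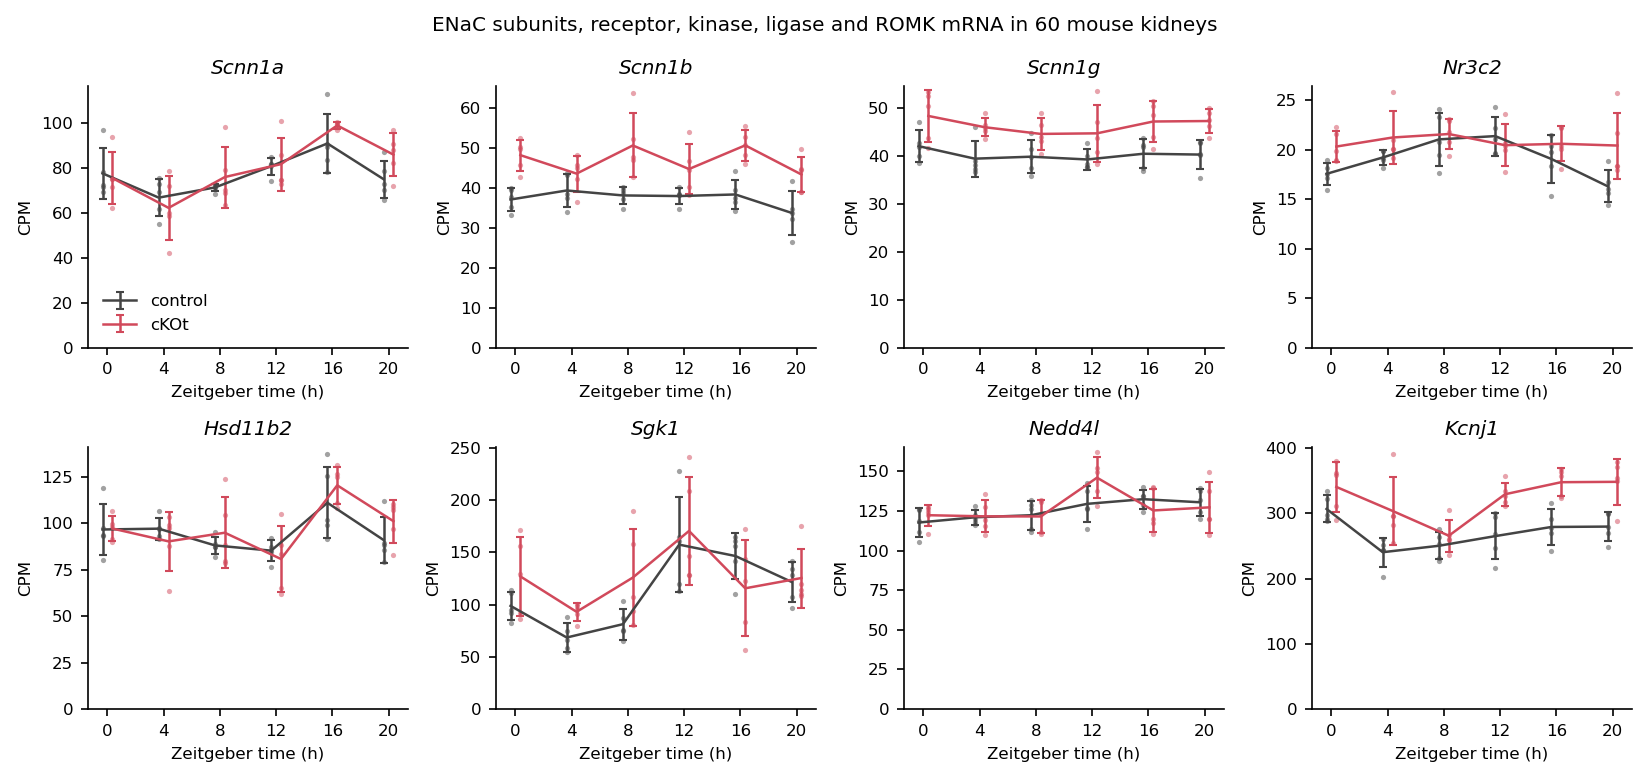
Level of each member in CPM (vertical axes, from 0) against zeitgeber time for control (grey) and cKOt (red) mice. Points are single mice, lines join group means, and bars are SD (n = 5). Scnn1b and Scnn1g run higher in cKOt mice at every time point, the group means of Sgk1 span more in control mice (68.4 to 157 CPM) than in cKOt mice (93.0 to 170 CPM), and Scnn1a and Hsd11b2 are highest at ZT16 in both genotypes.

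Scnn1b, the beta subunit (ENSMUSG00000030873, chromosome 7, 121865038 to 121918514), was the member with the most regular difference. At ZT16 the 5 control mice had 44.1, 39.4, 36.5, 37.5, and 34.2 CPM, and the 5 cKOt mice had 45.9, 55.6, 48.2, 52.7, and 50.8 CPM. Every cKOt mouse thus lay above every control mouse, as was also the case at ZT0 and ZT8. Such a separation upward was seen in 4.41% of all genes at ZT16, 4.06% at ZT0, and 5.02% at ZT8. Control mice averaged 37.4 ± 3.73 CPM over the day and cKOt mice 46.9 ± 5.82 CPM (SD, n = 30 per genotype), a log2 difference of 0.33 ± 0.03 (SE), or 1.26-fold (adjusted p = 2.37e-14). Each of the 6 time points was called, with differences between 0.25 (ZT4) and 0.38 (ZT20). At ZT4 the ranges overlapped (33.9 to 43.8 CPM against 36.4 to 48.2 CPM), and the difference was 0.15 without the RUVs factors (adjusted p = 0.281), 0.14 with batch in their place (0.314), 0.21 without replicate 1 (0.107), and 0.20 without replicate 5 (0.13). At ZT12 the call was lost without the RUVs factors (0.24, adjusted p = 0.0905) and with batch (0.23, 0.0974). The gene body shares 39152 bases with Cog7 on the opposite strand, and the strand setting of the read counting is not given in the sources used here.

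Scnn1g, the gamma subunit (ENSMUSG00000000216, chromosome 7, 121734479 to 121768475), lies 96.6 kb from Scnn1b on the same strand and showed a smaller difference. At ZT20 control mice had 40.4, 43.0, 42.7, 40.1, and 35.5 CPM and cKOt mice 47.5, 49.1, 43.7, 50.1, and 46.3 CPM, without overlap (3.03% of all genes were separated upward at this time). Control mice averaged 40.3 ± 3.03 CPM and cKOt mice 46.4 ± 4.02 CPM (SD, n = 30 per genotype), a log2 difference of 0.21 ± 0.03 (SE, adjusted p = 2.18e-08). It was called at ZT4, ZT12, ZT16, and ZT20, with values of 0.20 to 0.26. These calls were less steady than the mean: that at ZT16 was lost without the cKOt mouse marked for removal (0.15, adjusted p = 0.135) and without replicate 2, 4, or 5, that at ZT4 without replicate 1, 2, 3, or 5, that at ZT12 without replicate 2, 3, or 4, and that at ZT20 without replicate 2 or 5. Without a filter on low counts the calls at ZT4 (adjusted p = 0.0652), ZT12 (0.0796), and ZT16 (0.086) were lost, without the RUVs factors that at ZT12 (0.0995), and with batch those at ZT12 (0.0694) and ZT20 (0.0692). ZT0 was called in 1 of 14 alternatives (lowest adjusted p = 0.0182).

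Scnn1a, the alpha subunit (ENSMUSG00000030340, chromosome 6, 125320659 to 125344943), varied with time rather than with genotype. Control mice averaged 77.0 ± 11.1 CPM and cKOt mice 80.0 ± 15.2 CPM (SD, n = 30 per genotype), a log2 difference of 0.06 with a 95% interval from -0.01 to 0.13 (adjusted p = 0.133, and 0.0441 without replicate 1). It was called at no time point, and in 1 of 14 alternatives at ZT20 (lowest adjusted p = 0.025). In control mice the group mean went from 66.7 CPM at ZT4 to 90.9 CPM at ZT16, and in cKOt mice from 62.2 CPM at ZT4 to 98.9 CPM at ZT16. The spread within groups was uneven: at ZT16 the control mice ranged from 78.0 to 113 CPM, and the cKOt mice only from 96.8 to 100.3 CPM.

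The subunits were then compared within each mouse, which removes the effect of library size. The ratio of Scnn1a to Scnn1b counts averaged 2.05 in control and 1.69 in cKOt mice, a log2 difference of -0.28, with the cKOt mean lower at all 6 time points (two-sided permutation test within time points, adjusted p = 5e-05 from the smallest p that 100000 resamples can give, 1e-05). The ratio of Scnn1a to Scnn1g fell by 0.16 on the log2 scale (permutation, adjusted p = 0.0028), and that of Scnn1g to Scnn1b by 0.12 (permutation, adjusted p = 0.0028). The beta subunit therefore gained on both other subunits in cKOt mice. The ratio of Kcnj1 to Scnn1a was 0.21 higher (permutation, adjusted p = 0.0028) and lost its call without replicate 3 (0.16, adjusted p = 0.0686). The ratio of Sgk1 to Nedd4l was 0.845 in control and 0.945 in cKOt mice, a log2 difference of 0.16 that was not called (permutation, adjusted p = 0.15). The 5 ratios were adjusted together.

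**Figure D2:**
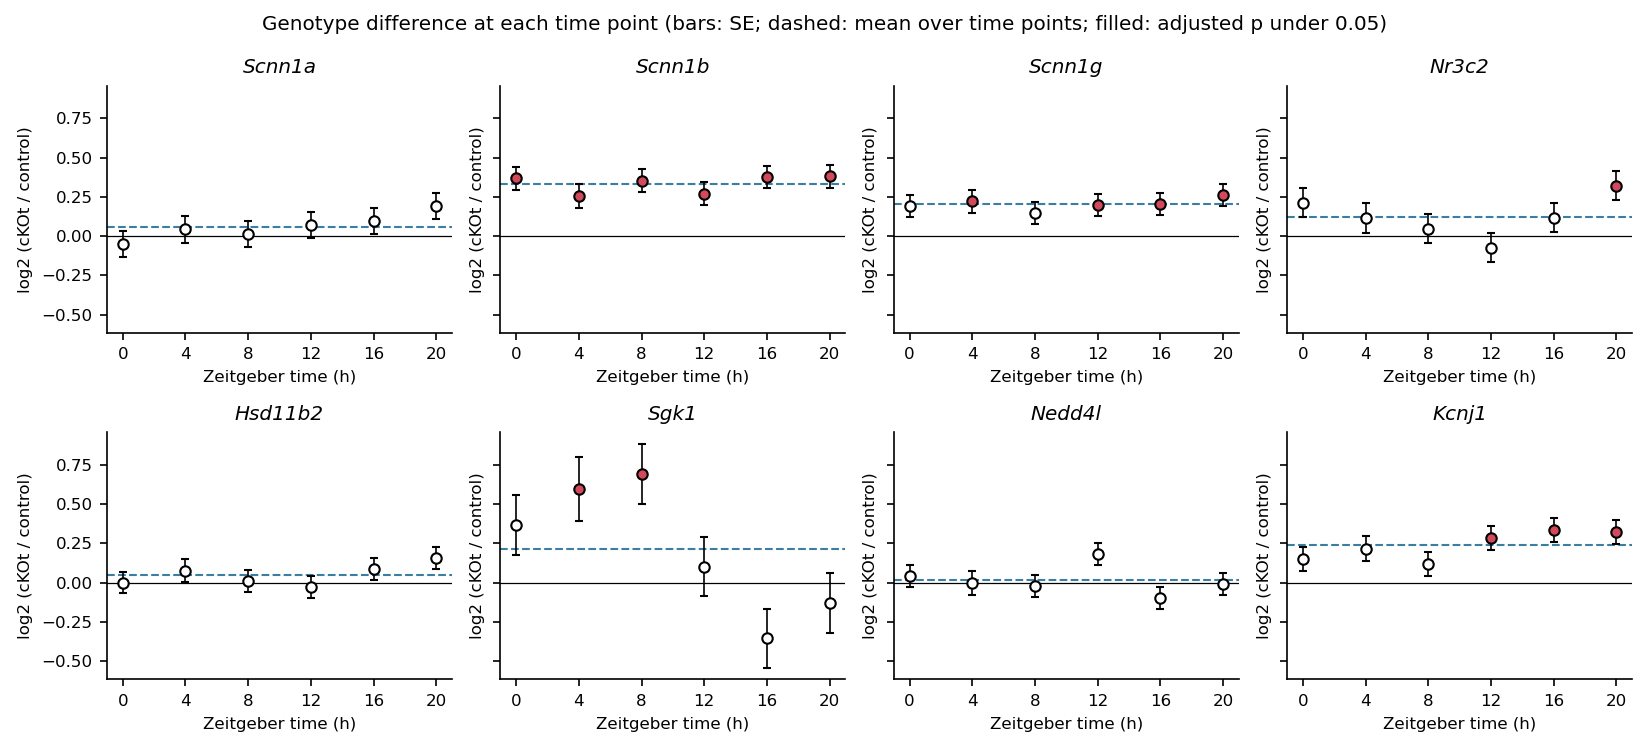
Log2 difference of cKOt against control mice (vertical axis) at each zeitgeber time (horizontal axis) for the 8 members, with SE bars from the edgeR fit. Filled points have an adjusted p under 0.05 and the dashed line is the mean over time points. Scnn1b is filled throughout, Kcnj1 from ZT12 to ZT20, and Sgk1 only at ZT4 and ZT8, with values below 0 at ZT16 and ZT20 that were not called.

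Kcnj1, which encodes ROMK (ENSMUSG00000041248, chromosome 9, 32372493 to 32399197), rose by 0.24 ± 0.03 (log2, SE) in cKOt mice (adjusted p = 3.48e-09). At ZT16 control mice had 242, 269, 278, 315, and 291 CPM and cKOt mice 364, 367, 358, 323, and 326 CPM. All cKOt mice lay above all control mice at ZT12 and ZT16, a separation shared by 5.06% and 4.41% of all genes. At ZT12, ZT16, and ZT20 the differences were called (0.28, 0.34, and 0.33), while those at ZT0, ZT4, and ZT8 were not. At ZT4 the difference was 0.22 (adjusted p = 0.0646), and over 14 alternatives it ran from 0.13 to 0.34 and was called in 4, with a lowest adjusted p of 0.0066. The call at ZT12 was lost without replicate 1 (0.22, adjusted p = 0.0511) or replicate 3 (0.23, 0.0719). Whether the difference varied with time did not reach the threshold (adjusted p = 0.61).

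The receptor side of the pathway moved less. Nr3c2, the mineralocorticoid receptor (ENSMUSG00000031618, chromosome 8, 76899442 to 77245012), averaged 19.1 ± 2.5 CPM in control mice against 20.8 ± 2.11 CPM in cKOt mice (SD, n = 30 per genotype), a log2 difference of 0.12 ± 0.04 (SE, adjusted p = 0.00503). That call was lost when replicate 1 (0.11, adjusted p = 0.051) or replicate 5 (0.08, adjusted p = 0.0739) was left out of all groups. At ZT20 control mice had 16.0, 14.4, 16.7, 18.8, and 15.6 CPM and cKOt mice 18.0, 18.4, 18.4, 21.7, and 25.8 CPM. ZT20 was the only time with a call (0.32 ± 0.09, SE, adjusted p = 0.0131), and the ranges overlapped there because the highest control mouse exceeded 3 cKOt mice. That call was lost without replicate 1 (0.33, adjusted p = 0.0528), 2 (0.32, 0.0589), or 5 (0.22, 0.137). Hsd11b2, the enzyme that protects the receptor (ENSMUSG00000031891, chromosome 8, 105518755 to 105523988), had 94.8 ± 13.5 CPM in control against 97.4 ± 17.8 CPM in cKOt mice (SD, n = 30 per genotype), a log2 difference of 0.05 with a 95% interval from -0.01 to 0.11 (adjusted p = 0.137). Nedd4l, the ubiquitin ligase (ENSMUSG00000024589, chromosome 18, 64887705 to 65217828), had 126 ± 9.48 CPM against 127 ± 14.0 CPM (SD, n = 30 per genotype), a log2 difference of 0.02 with a 95% interval from -0.04 to 0.07 (adjusted p = 0.651). The largest difference of Nedd4l was at ZT12 (0.18, adjusted p = 0.0514), just outside the threshold.

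Sgk1, the aldosterone-induced kinase (ENSMUSG00000019970, chromosome 10, 21882184 to 21999903), was the member with the widest daily range and the most uneven difference. At ZT4, its lowest time, control mice had 54.5, 75.0, 88.0, 58.2, and 66.5 CPM and cKOt mice 98.2, 95.7, 101, 79.5, and 90.7 CPM. At ZT8 control mice had 75.9, 64.9, 104, 86.9, and 74.7 CPM and cKOt mice 94.1, 158, 107, 80.0, and 189 CPM. At ZT16 the group mean was lower in cKOt mice, though not called, with 165, 110, 141, 160, and 156 CPM in control and 56.9, 82.9, 172, 143, and 123 CPM in cKOt mice. The ranges overlapped at each of these times, and the cKOt mice were the more scattered at ZT8 and ZT16. The log2 difference was 0.60 ± 0.20 (SE) at ZT4 (adjusted p = 0.0407) and 0.69 ± 0.19 at ZT8 (adjusted p = 0.00613). At ZT0, ZT12, ZT16, and ZT20 it was 0.37, 0.10, -0.35, and -0.13, and none of these was called. The call at ZT4 was lost without the RUVs factors (0.44, adjusted p = 0.16) or with batch in their place (0.44, 0.135), with DESeq2's Wald test (0.59, 0.0568), and without replicate 1, 2, 3, or 4 (0.0641 to 0.19). That at ZT8 was lost with batch (0.51, adjusted p = 0.147), without replicate 2 (0.57, 0.0893), and without replicate 5 (0.39, 0.173), which holds the cKOt mouse with 189 CPM.

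Averaged over the day Sgk1 was 0.21 ± 0.08 (log2, SE) higher in cKOt mice (adjusted p = 0.0198). This mean call was lost without the RUVs factors (adjusted p = 0.0559), with batch in their place (0.0919), and without replicate 3 (0.0504) or replicate 5 (0.118). Whether the Sgk1 difference changed with time was just short of the threshold (unadjusted p = 0.00162, adjusted p = 0.0516, edgeR F test on 5 degrees of freedom), and over 13 alternatives the adjusted p ran from 0.0413 to 0.411. It passed in 2 of these, with the replicate block (0.0441) and without replicate 3 (0.0413), and was 0.411 without the RUVs factors, 0.328 with batch, and 0.337 without replicate 2. None of the other 7 members had an unadjusted p under 0.05 in that test, and 0 of 8 were called by edgeR or by limma-trend, against 3.08% of all genes.

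Time of day was tested in each genotype on its own. In control mice 4 of 8 members varied with time (Scnn1a, Nr3c2, Sgk1, and Kcnj1), against 30.6% of all genes. In cKOt mice 5 of 8 did (Scnn1a, Hsd11b2, Sgk1, Nedd4l, and Kcnj1), against 26.6% of all genes. Group means of Sgk1 in control mice ran from 68.4 CPM at ZT4 to 157 CPM at ZT12, a ratio of 2.30 (adjusted p = 5.27e-07), and in cKOt mice from 93.0 to 170 CPM at the same times, a ratio of 1.83 (adjusted p = 0.0194). Nr3c2 in control mice ran from 16.3 CPM at ZT20 to 21.4 CPM at ZT12 (adjusted p = 0.00454), whereas all 6 group means of cKOt mice lay between 20.3 and 21.6 CPM (adjusted p = 0.909). The direct test of whether the Nr3c2 difference changed with time was not called (adjusted p = 0.405, edgeR F test). It passed in 0 of 13 alternatives. The time call of Nr3c2 in control mice was lost without replicate 2 (adjusted p = 0.0995), and that of Sgk1 in cKOt mice without replicate 3 (0.122) or 5 (0.059). Hsd11b2 in control mice (adjusted p = 0.07) gained a call without replicate 4 (0.0459), without replicate 5 (0.0325), and with the replicate block (0.012). Nedd4l in cKOt mice lost its call without replicate 2 (0.0601), 3 (0.152), or 4 (0.0758). Scnn1b and Scnn1g did not pass the test in either genotype.

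Rhythms with a period of 24 h were assigned by the weights of the Bayesian information criterion (BIC) among 5 models: no rhythm (model 1), rhythm in control only (model 2), in cKOt only (model 3), the same rhythm in both (model 4), and different rhythms in both (model 5). A weight of at least 0.65 was required. Model 4 took Scnn1a, Hsd11b2, Nedd4l, and Kcnj1 (25.2% of all genes), model 2 took Nr3c2 and Sgk1 (6.25%), and model 1 took Scnn1g (34.0%). Scnn1b stayed unassigned (28.7%). No member fell into model 3 (3.42%) or model 5 (2.37%), so 6 of 8 had a rhythm in at least 1 genotype, against 37.3% of all genes.

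Scnn1a had a peak-to-trough amplitude of 0.38 ± 0.07 (log2, SE) with a peak at ZT15.8 in control and of 0.52 ± 0.07 at ZT16.1 in cKOt mice (weight of model 4, 0.949). Kcnj1 peaked later, at ZT20.5 with an amplitude of 0.24 in control and at ZT18.8 with 0.39 in cKOt mice (weight 0.856). Hsd11b2 peaked at ZT18.5 (0.16) and ZT19.4 (0.26), with a weight of 0.878. Nedd4l had amplitudes of 0.16 and 0.18 with peaks at ZT15.1 and ZT13.4, below the medians over all genes of 0.198 in control and 0.186 in cKOt mice.

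Sgk1 had an amplitude of 1.22 ± 0.18 (log2, SE) with a peak at ZT16.1 in control mice and of 0.34 ± 0.18 in cKOt mice (weight of model 2, 0.899). Nr3c2 had 0.37 ± 0.07 with a peak at ZT9.53 in control and 0.07 ± 0.07 in cKOt mice (weight 0.958). These are peaks of the fitted cosine, and the highest control group mean of both genes was at ZT12. Sgk1, Hsd11b2, and Nedd4l became unassigned without replicate 1, Kcnj1 without replicate 5, and Hsd11b2, Nedd4l, and Scnn1g without replicate 4. Nedd4l was also unassigned without replicate 2, Hsd11b2 without RUVs correction, and Scnn1g at a BIC weight of 0.8, while Scnn1b was assigned to model 1 without RUVs correction. Nr3c2 kept model 2 under all alternatives run, although the F test of whether its difference changed with time was not called. Sgk1, also in model 2, still varied with time in cKOt mice by the edgeR F test (adjusted p = 0.0194). Its cKOt group means ran from 93.0 CPM at ZT4 to 170 CPM at ZT12, a call that depended on the replicates kept, as given above. Whether the Sgk1 difference changed with time was just short of the threshold (adjusted p = 0.0516, edgeR F test).

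**Figure D3:**
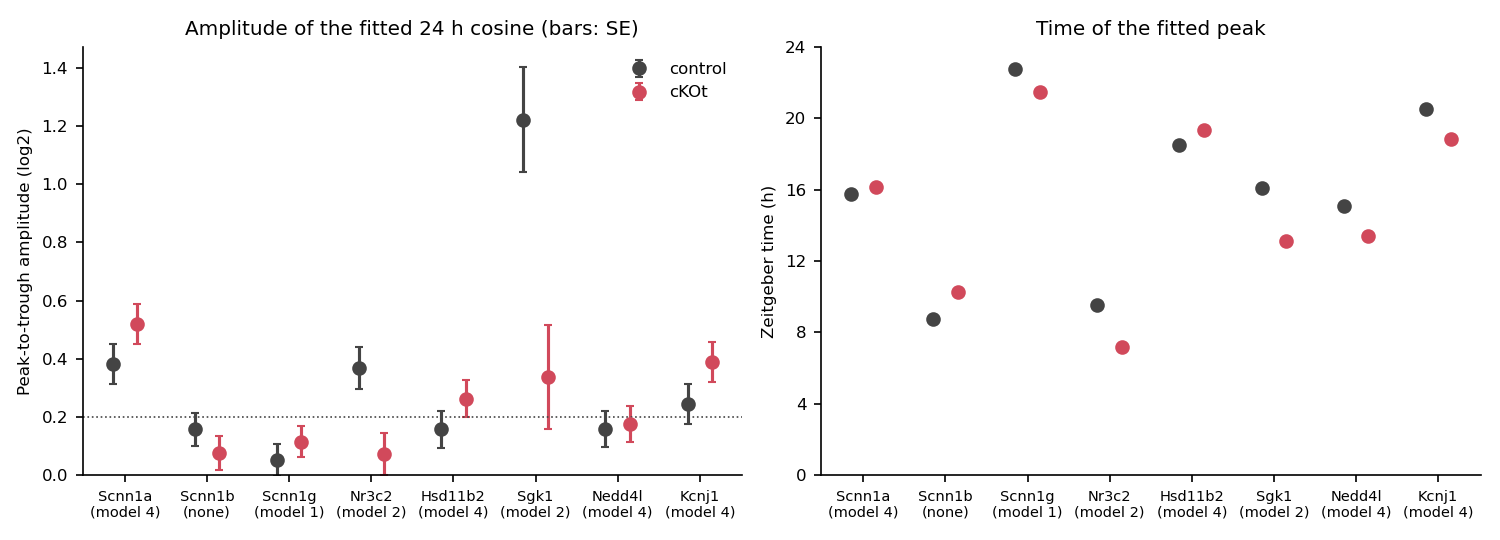
Left, peak-to-trough amplitude (log2) of the fitted 24 h cosine in control (grey) and cKOt (red) mice, with SE bars and a dotted line at the control median over all genes (0.198). Right, zeitgeber time of the fitted peak, with the assigned model under each name. Sgk1 stands out at 1.22 in control mice, and Nr3c2 drops from 0.37 to 0.07.

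Levels were compared between genes per kilobase of annotated exon (RPKM from the TMM-scaled values), as mean and range over the 30 mice of a genotype. In control mice the order was Kcnj1 at 81.1 RPKM, Hsd11b2 at 51.5, Sgk1 at 22.9, Scnn1a at 18.6, Scnn1b at 14.2, Scnn1g at 13.5, Nedd4l at 7.12, and Nr3c2 at 2.95 RPKM. The order was the same in cKOt mice, from 96.7 RPKM for Kcnj1 to 3.21 RPKM for Nr3c2. Each gene down to Scnn1b overlapped in range with the next in both genotypes, while Scnn1g lay apart from Nedd4l and Nedd4l from Nr3c2. The 3 ENaC subunits were thus within a narrow span on this scale, and the receptor was the least abundant member. The length used joins all annotated exons of a gene, 17659 bases for Nedd4l against 4132 for Scnn1a and 2633 for Scnn1b. In CPM Nedd4l (126 in control mice) lay above Scnn1a (77.0), so its place below the ENaC subunits depends on that length.

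Sgk1 also responds to glucocorticoids, and 9 further genes of steroid signalling were examined. Of these, 3 rose, 4 fell, and 2 were not called on the mean over time. Tsc22d3, the glucocorticoid-induced leucine zipper, rose by 0.21 ± 0.06 (log2, SE, adjusted p = 0.00142), and Zbtb16, a steroid-induced transcription factor, by 0.86 ± 0.15 (adjusted p = 3.46e-06). Fkbp5, a steroid-induced co-chaperone, had a log2 difference of -0.40 ± 0.07 (adjusted p = 9.54e-06), Ndrg2, known as an aldosterone-responsive gene, of -0.55 ± 0.04 (adjusted p = 1.87e-17), and the clock gene Per1 of -0.24 ± 0.09 (adjusted p = 0.0227). Cnksr3, a scaffold induced by aldosterone, rose by 0.13 (adjusted p = 0.000389), and the glucocorticoid receptor Nr3c1 had a difference of -0.07 (adjusted p = 0.0269). Fkbp4 (-0.06) and Edn1 (0.06) were not called.

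Tsc22d3 and Zbtb16, like Sgk1, were lowest at ZT4 in control mice. Tsc22d3 in control mice had 35.5 ± 8.71 CPM at ZT4 and 99.0 ± 15.6 CPM at ZT12, and in cKOt mice 52.3 ± 5.04 CPM and 82.4 ± 11.1 CPM (SD, n = 5 each). The cKOt mean was the higher at ZT4 and the lower at ZT12, and the difference varied with time (adjusted p = 0.00194). The amplitude of Tsc22d3 was 1.44 in control and 0.59 in cKOt mice, with peaks at ZT15.1 and ZT16.9 (model 5). Zbtb16 had amplitudes of 2.77 and 1.26 (model 5), with group means at ZT4 of 2.28 CPM in control against 6.78 CPM in cKOt mice, and at ZT12 of 11.0 against 20.7 CPM. Whether the Zbtb16 difference varied with time did not reach the threshold (adjusted p = 0.0571, edgeR F test). Fkbp5 had amplitudes of 0.93 and 0.69 and was assigned the same rhythm in both genotypes (model 4), unlike Tsc22d3 and Zbtb16.

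**Figure D4:**
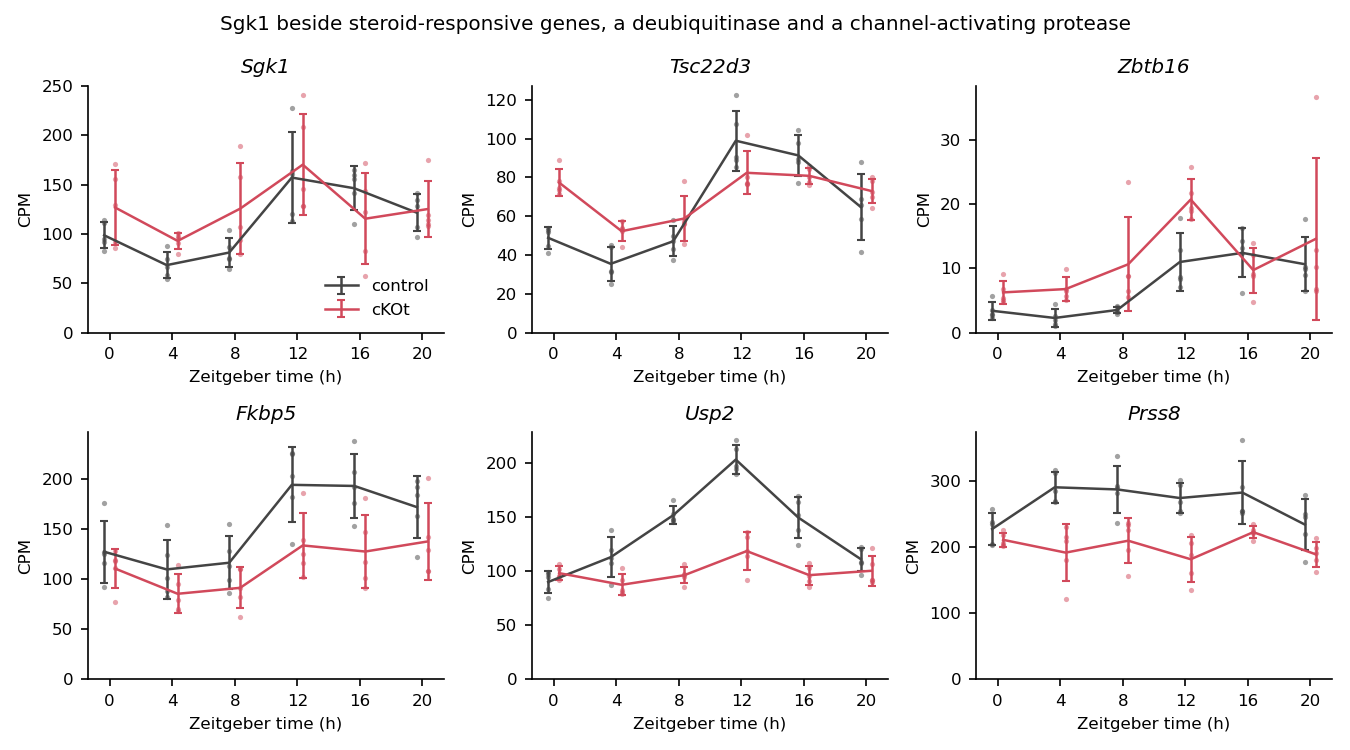
Level in CPM (vertical axes, from 0) against zeitgeber time for Sgk1, 3 steroid-responsive genes, the deubiquitinase gene Usp2, and the protease gene Prss8, in control (grey) and cKOt (red) mice. Points are mice, lines are means, and bars are SD (n = 5). Tsc22d3 is higher at ZT4 and lower at ZT12 in cKOt than in control mice, and the control peak of Usp2 at ZT12 (203 CPM) is reduced to 118 CPM.

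A list of 11 genes held kinases and ubiquitin enzymes that act with Sgk1, Nedd4-2, or ENaC and a pair of chromatin factors. Of these 6 fell, 4 were not called, and 1, the chromatin factor Dot1l, rose. Mtor, the kinase of the complex that phosphorylates Sgk1, had a difference of -0.50 ± 0.04 (log2, SE, adjusted p = 2.33e-15), and Mapkap1, a subunit of that complex, of -0.08 (adjusted p = 8.64e-05), while Rictor was not called (0.06, adjusted p = 0.394). Pdpk1, which phosphorylates the activation loop of Sgk1, had -0.06 (adjusted p = 0.0111). Sgk2 had -0.38 (adjusted p = 8.58e-14), Sgk3 was not called, and neither was the related ligase Nedd4 (0.02, adjusted p = 0.246). Of the deubiquitinases, Usp2 had -0.41 ± 0.04 (adjusted p = 3.16e-13) and Usp10 -0.23 ± 0.02 (adjusted p = 1.72e-14). Usp2 had 89.7 ± 10.5 CPM at ZT0 and 203 ± 13.2 CPM at ZT12 in control mice, against 97.9 ± 6.32 CPM and 118 ± 17.2 CPM at these times in cKOt mice (SD, n = 5 each), and its difference varied with time (adjusted p = 5.14e-06). Dot1l, a histone methyltransferase described as a repressor of Scnn1a, rose by 0.22 (adjusted p = 5.1e-10), and its partner Mllt3 was not called.

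ENaC is activated by cleavage of its alpha and gamma subunits, and 8 of 9 genes of the proteases and their inhibitors were called, 4 higher and 4 lower. Prss8 (prostasin, a channel-activating protease) averaged 266 ± 39.8 CPM in control mice against 201 ± 29.4 CPM in cKOt mice (SD, n = 30 per genotype), a difference of -0.38 ± 0.02 (log2, SE, adjusted p = 4.83e-20). Its rhythm was assigned to control mice only, with amplitudes of 0.37 and 0.03, and its difference varied with time (adjusted p = 0.00203). St14 (matriptase) rose by 0.26 (adjusted p = 5.96e-16) and was also assigned to model 2. Tmprss2 rose by 0.16 (adjusted p = 3.7e-12), Plau (urokinase) by 0.38 (adjusted p = 2.25e-08), and Spint2, an inhibitor of these proteases, by 0.24 (adjusted p = 5.34e-14). Furin had -0.07 (adjusted p = 0.005), Serpine2 -0.30 (adjusted p = 3.96e-09), and Tmprss4, at under 1 CPM, -0.80 (adjusted p = 8.52e-06). Spint1 was not called.

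The basolateral sodium pump carries the absorbed sodium out of the cell in every tubule segment. Of 3 genes read for it, 2 fell: Atp1b1, its beta subunit, had -0.18 ± 0.02 (log2, SE, adjusted p = 5.42e-11) and the regulator Fxyd2 -0.10 ± 0.04 (adjusted p = 0.02), while Fxyd4, the collecting duct regulator of the pump, was not called (0.01, adjusted p = 0.893). Among potassium channels and WNK1, Kcnma1 (the BK channel) had -0.35 (adjusted p = 4.68e-05) and Kcnj16 -0.17 (adjusted p = 7.04e-09), and Kcnj10 and Wnk1 rose by 0.14 (adjusted p = 8.47e-06) and 0.09 (adjusted p = 0.0159). Kcnmb2 and Kcnmb4 did not pass the minimum expression. Over the 36 retained genes of these lists, 77.8% were called, 10 higher and 18 lower, against 50.0% of all genes, and the median difference was -0.06.

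**Figure D5:**
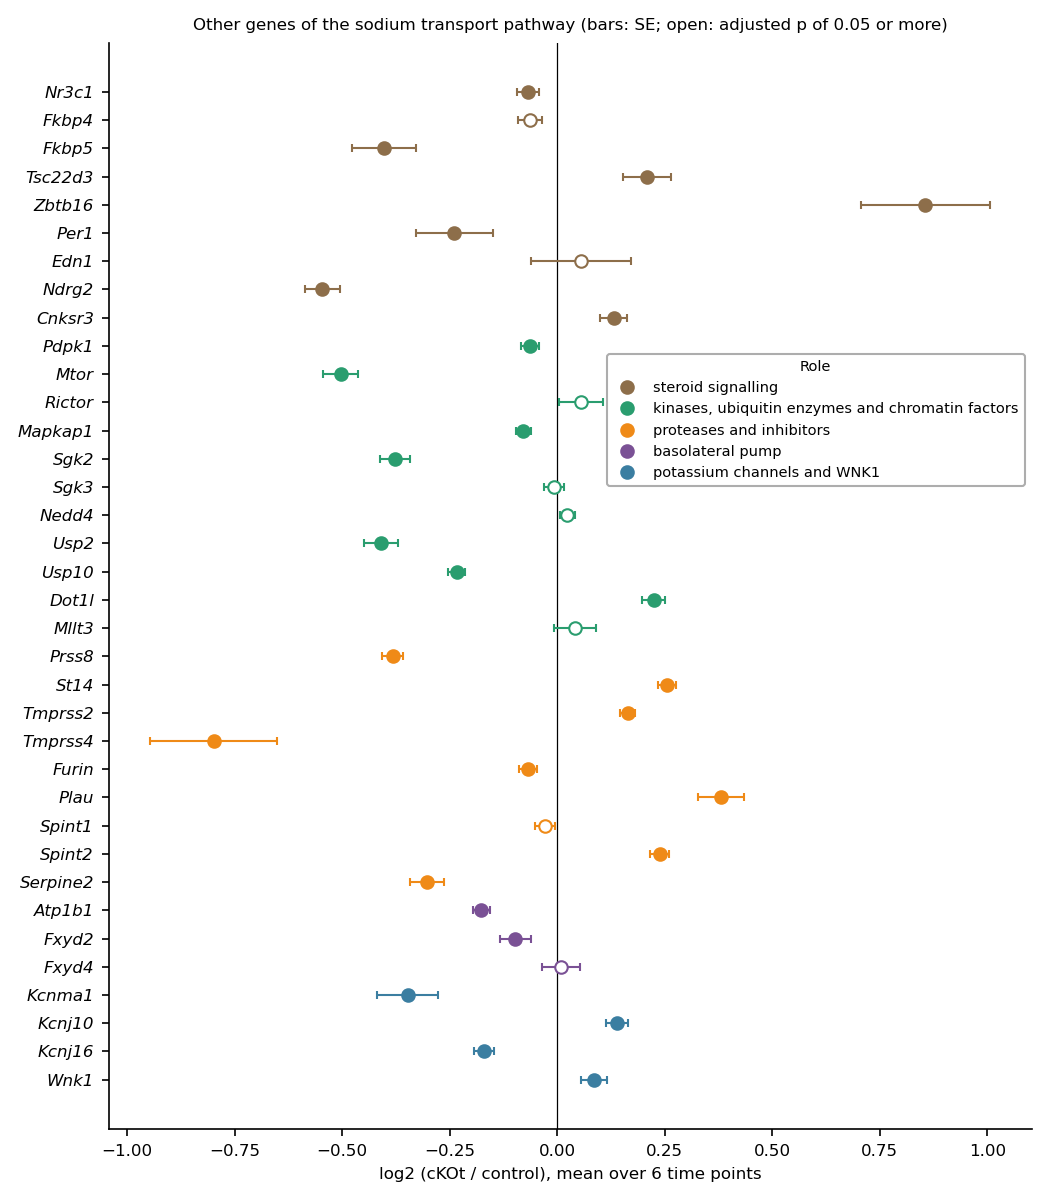
Log2 difference of cKOt against control mice over 6 time points (horizontal axis, SE bars) for the 36 retained genes that act with the 8 members, coloured by role. Filled points have an adjusted p under 0.05. Prss8, Usp2, Mtor, Ndrg2, and Fkbp5 lie below 0, and Zbtb16, Plau, and St14 above.

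Markers of the cells that hold these transcripts were read beside them. The 3 connecting tubule markers all rose, Calb1 by 0.27, Slc8a1 by 0.54, and Trpv5 by 0.48 (log2, adjusted p of 0.000242, 2.22e-10, and 1.67e-13), and their summed level ranged from 403 to 759 CPM (median 577) in control and from 450 to 1161 CPM (median 693) in cKOt mice. Of 5 principal cell markers, Avpr2 rose (0.18), Aqp3 and Aqp4 fell (-0.25 and -0.92), and Aqp2 and Fxyd4 were not called. Their summed levels were 130 to 282 CPM (median 198) in control and 112 to 241 CPM (median 170) in cKOt mice. Of 4 thick ascending limb markers, which bear on Kcnj1, Slc12a1, Cldn16, and Cldn10 rose and Umod fell. Their sum was 2885 to 5634 CPM (median 4615) in control and 3463 to 4779 CPM (median 3908) in cKOt mice. Umod weighs most in that sum, with up to 71204 counts in a mouse against 30448 for Slc12a1, the next highest. The lower median therefore goes with Umod and not with the 3 markers that rose. Of 3 distal convoluted tubule markers, Slc12a3 and Trpm6 rose and Pvalb was not called. Their sum was 896 to 1299 CPM (median 1120) in control and 1000.1 to 1399.6 CPM (median 1178) in cKOt mice. Whether these shifts have a part in the higher Scnn1b, Scnn1g, and Kcnj1 was not tested.

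Each member was finally set beside the genes whose 12 group means followed it most closely, by Pearson's r over 10865 genes with a mean of at least 5 CPM. These are descriptions over 12 groups that share genotype and time. For Scnn1b they were Spint2 and Tmc4 (r of 0.965 for both), for Scnn1g Pgam1 (0.982) and Ybx1 (0.977), and for Scnn1a Micall1 (0.953) and 6430548M08Rik (0.916). Sgk1 was followed by Zhx3 (0.928) and Tsc22d3 (0.907), and Nr3c2 by Plekhb2 (0.898) and Fanca (0.897). For Hsd11b2 they were Tmem184b (0.964) and Boc (0.950), for Kcnj1 Polb (0.959) and Gigyf2 (0.948), and for Nedd4l Gm43597 (0.945) and 2310057M21Rik (0.888). No member was among the nearest genes of another.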

How the data were processed

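The deposited values are whole-number RNA-Seq counts for each Ensembl gene, which the authors left without normalization in 1 file per mouse. The submitters' processing notes name cutadapt 1.8, STAR 2.5.3a, HTSeq 0.9.1, and GRCm38, and libraries were made with TruSeq Stranded mRNA reagents. The htseq summary lines were left out (reads outside genes 7.17% to 10.6% and ambiguous reads 0.953% to 1.27% of these and the gene counts together). Symbols and positions were taken from GENCODE release M21 on GRCm38. Genes with at least 1 CPM in 1 mouse were kept. The edgeR (4.0.16) quasi-likelihood fit used TMM scaling, a term for each of 12 groups, and 2 RUVs factors of unwanted variation, with Benjamini-Hochberg adjustment over all 15546 genes. Rhythms were fitted to RUVs-corrected log2 CPM (prior count 2) with model selection as in dryR. RUVs and that selection were written anew. Intervals are the estimate ± 1.96 SE. Ratios used counts plus 0.5, and amplitudes are peak to trough.

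Members, lists, and tests were chosen with earlier results of these data known. The genes named are the 8 members, the genes of the fixed pathway and marker lists, and the 2 genes most like each member. 1 listed gene is not reported here. Replicates differed by more than counting noise in all 120 pairs (at least 5.54 times). P-values measure the spread between mice. Replicate numbers carried no pairing: deviations from the group means correlated on average by 0.00433 over 330 pairs with the same number and -0.00103 over 1320 with different numbers. Batch and RIN were read from the study's sample list (6 batches of 9 to 12 mice). On simulated counts for the genotype mean over 15546 genes, 80% of 50 genes changed by 0.25 (log2) and all 50 changed by 0.5 were recovered. In the same counts, sets of 50 genes were given a rhythm in control mice only. Model 2 took 52% of them at a peak-to-trough amplitude of 0.25 (log2), 84% at 0.5, 96% at 1, and 92% at 2. The changed and the rhythmic genes were drawn from the better expressed genes only. No batch or other unwanted variation was simulated, and a far smaller share of genes was changed than was called in the mice. These recoveries therefore do not cover low counts or the effect of the RUVs factors. Alternatives were DESeq2 (1.42.0) size factors, its Wald test, limma-trend (limma 3.58.1), no filter, filterByExpr, no RUVs factors, batch in their place, a replicate block, the fit without the marked mouse, each replicate number left out, BIC weights of 0.5 and 0.8, and 5 counts added in the ratios.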

Additional observations from a re-analysis of the deposited data

Results flagged for a closer look

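In 4 of the 96 sets of 5 mice (8 members in 12 groups), 1 mouse lay apart from the other 4 by Dixon's criterion, which chance meets in about 1 in 20 sets. These were the highest control mouse for Scnn1g at ZT4 (46.0 CPM, next 39.1), the highest cKOt mouse for Nr3c2 at ZT4 (25.9 CPM, next 21.0), the highest cKOt mouse for Sgk1 at ZT20 (175 CPM, next 120), and the lowest cKOt mouse for Nedd4l at ZT0 (111 CPM, next 123).

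The genotype difference varied between time points for 5 genes of the pathway lists by the edgeR F test. The adjusted p was 0.00194 for Tsc22d3, 0.03 for Sgk2, 5.14e-06 for Usp2, 0.00203 for Prss8, and 0.00194 for Atp1b1. Atp1b1, the beta subunit of the sodium pump, had an amplitude of 0.35 in control and 0.11 in cKOt mice, and Usp2 of 1.09 and 0.23.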

How the results depend on the processing

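The genotype mean was called for 4 to 5 members under the other settings and for 3 to 5 with a replicate number left out, and no member's mean changed sign. The counts moved most at single time points. With replicate numbers left out they were 1 to 2 at ZT0, 1 to 3 at ZT4, 1 to 2 at ZT8, 1 to 3 at ZT12, and 2 to 4 at ZT20, and for genotype by time 0 to 1, for time in cKOt 3 to 5, and for members with a rhythm 3 to 6. Without a filter 0 members were called at ZT4 (4 had an unadjusted p under 0.05 in this edgeR fit, and limma-trend on the filtered genes called 3). With batch in place of RUVs 1 member was called at ZT8 and 1 at ZT12, and without RUVs factors 1 at ZT12. The cause was not tested. The ratio of Kcnj1 to Scnn1a ranged from 0.162 to 0.304 with a replicate number left out. The Sgk1 difference at ZT20 became 0.0442 without RUVs factors, 0.114 with batch, and -0.208 to 0.0067 with a replicate number left out, and at ZT12 -0.0607 to 0.329, none of them called. With the replicate block 1 member (Sgk1) was called for genotype by time, and Hsd11b2 was called for time in control (adjusted p = 0.012); it changed no other member's call. Over all genes, genotype by time gave 479 calls, 263 without RUVs factors, 312 with batch, and 233 to 298 without replicate 2, 3, or 4. Calls by time point over all genes also moved by over 1.5 times without RUVs factors (983 against 1884 at ZT0, 2013 against 3095 at ZT8, 1853 against 3071 at ZT16, 1407 against 2140 at ZT20) and with batch (1130, 1991, 1829, and 1419 at these times, and 3091 against 1950 at ZT4). Time in cKOt gave 4142 calls and 2608 without replicate 4. The fit of rhythms without the marked mouse was chosen after seeing the data and left each member's model as it was. Depth limits Tmprss4 (0.762 CPM in control mice) and Edn1 (1.29 CPM) most.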

Other observations

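Markers of cells without ENaC were also read. Of 5 intercalated cell markers, Atp6v1b1 (0.15), Atp6v0d2 (0.18), Slc26a4 (0.08), and Foxi1 (0.27) rose in cKOt mice and Slc4a1, the anion exchanger of the acid-secreting cell, had a log2 difference of -0.32 (adjusted p of 9.49e-07, 1.78e-07, 0.0458, 0.000102, and 3.76e-08). Of 4 proximal tubule markers, Slc34a1 (0.06) and Slc5a2 (0.16) rose and Lrp2 (-0.09) and Slc22a6 (-0.27) fell. All 3 endothelial markers (-0.10 to -0.13) and all 3 fibroblast markers (-0.12 to -0.37) fell, as did 2 of 3 macrophage markers, and neither podocyte marker was called. Star, the only adrenal cortex marker of 5 that passed the minimum expression, was not called (-0.11, adjusted p = 0.289). The summed levels overlapped between genotypes for each list, for example 240 to 297 CPM in control and 192 to 280 CPM in cKOt mice for the endothelium. Aqp4, a water channel read here as a principal cell marker, had the largest difference of any marker read (-0.92 ± 0.08, log2, SE, adjusted p = 1.18e-14). Aqp2, a water channel on the same list, was not called (-0.03, adjusted p = 0.747). In RNA from whole kidney neither value can be placed in a given cell type.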
